A study of Homo sapiens with 9 samples.

Results

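The genes described here are 9 that remove ubiquitin from histones or anchor such an enzyme in the SAGA coactivator complex: USP22, ATXN7, ATXN7L3, ENY2, USP7, USP49, USP44, USP3 and USP16. They were taken by gene symbol from a table of 63677 genes, in which each symbol had a single entry on a primary chromosome, and 8 of the 9 were high enough to be among the 17663 genes tested. Polyadenylated RNA was sequenced from HCT116 cells, an established human colon carcinoma line labelled as wild type, which were harvested 48 h after Lipofectamine RNAiMAX had carried small interfering RNA (siRNA) into them. The siRNF40 group was directed against RNF40, the siTG2 group against transglutaminase 2 (gene TGM2), and the siControl group received a control siRNA, with 3 libraries in each group. All groups share the cell line, the transfection and the time, and all values come from this single line.

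Monoubiquitin on histone H2B is placed by the RNF20-RNF40 ligase and is tied to transcribed genes, and deubiquitinases take it off again. In SAGA this is done by USP22, which works only when ATXN7L3 and ENY2 are bound to it, while ATXN7 tethers the module to the rest of the complex. USP7, USP49 and USP44 are further enzymes reported to act on H2B, and USP3 and USP16 act mainly on ubiquitinated H2A, USP3 on both histones.

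USP7 fell to about the same level in both knockdowns, and USP49 rose in both, more in siRNF40. USP3 and USP16 fell in siTG2, and both were higher in siRNF40 than in siTG2. Within the SAGA module, USP22 was slightly lower and ATXN7L3 slightly higher in siRNF40, ENY2 was higher in siRNF40 with a wide spread between libraries, and ATXN7 was not called in any comparison. USP44 was near 0 in all 9 libraries.

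Promoter sequence is printed for the 4 enzymes for which at least 1 call against siControl held in all 19 alternatives run, USP49, USP7, USP3 and USP16. Each window holds the 250 bases before the most upstream start in the RefSeq promoter table (GRCh38.p14), written 5′ to 3′ on the gene's strand, with matches to 6 motifs in capitals. The motifs, searched on both strands, were the GC box with the letters GGGCGG, the promoter element read as CCAAT, the E-box with the letters CACGTG, the ETS site with the letters CCGGAAG, the classical TATA element with the letters TATAAA, and the CRE with the letters TGACGTCA. Matches of the GC box run into each other in USP3.
USP49, chr6:41895376-41895625, minus strand: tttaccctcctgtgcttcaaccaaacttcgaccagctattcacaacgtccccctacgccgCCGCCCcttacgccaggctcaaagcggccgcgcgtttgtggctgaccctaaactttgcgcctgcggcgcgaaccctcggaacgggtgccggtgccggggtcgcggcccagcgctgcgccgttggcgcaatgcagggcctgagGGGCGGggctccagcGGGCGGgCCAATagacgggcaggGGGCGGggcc
USP7, chr16:8963907-8964156, minus strand: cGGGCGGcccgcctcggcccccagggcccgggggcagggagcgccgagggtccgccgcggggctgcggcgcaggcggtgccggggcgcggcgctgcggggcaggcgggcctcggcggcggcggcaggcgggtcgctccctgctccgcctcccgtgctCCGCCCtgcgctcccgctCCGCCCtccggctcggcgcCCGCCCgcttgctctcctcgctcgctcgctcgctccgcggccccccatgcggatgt
USP3, chr15:63504343-63504592, plus strand: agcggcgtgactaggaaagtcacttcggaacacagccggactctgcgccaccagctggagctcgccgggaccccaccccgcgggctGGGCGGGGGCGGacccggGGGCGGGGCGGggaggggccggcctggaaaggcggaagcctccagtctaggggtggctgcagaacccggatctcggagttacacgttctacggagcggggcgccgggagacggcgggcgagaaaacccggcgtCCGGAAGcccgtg
USP16, chr21:29024418-29024667, plus strand: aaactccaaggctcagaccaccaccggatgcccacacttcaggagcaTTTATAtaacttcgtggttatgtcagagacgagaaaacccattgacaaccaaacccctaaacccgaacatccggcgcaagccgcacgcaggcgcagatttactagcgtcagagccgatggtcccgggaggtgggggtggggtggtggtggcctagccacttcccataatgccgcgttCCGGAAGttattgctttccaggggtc
The window of USP49 held 4 GC boxes and 1 CCAAT, that of USP7 held 4 GC boxes, and that of USP3 held 4 GC boxes and 1 ETS site. The window of USP16 held no GC box, 1 ETS site and 1 TATA box match on the other strand. Among 34788 promoter windows of this length, 42.6% held a GC box, 32.0% CCAAT, 10.8% a TATA box, 8.50% the ETS site, 6.31% the E-box and 1.64% the CRE. GC content was 84.4% in USP7, 72.4% in USP3, 69.6% in USP49 and 56% in USP16, against a median of 58% over the windows. USP3 and USP16, whose levels ran most closely together, both hold the ETS match and differ in the GC boxes. Any part of the ETS match in their levels was not tested. A match is a run of letters and not a shown binding site.

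An earlier analysis of these same data singled out the 7-base word GTCTTCA as the one most tied to lower genes in siRNF40, and GCGCCCT likewise for siTG2. In the representative GENCODE 29 transcripts, 1 of the 9 genes, USP7, held either word in its 3′ UTR. The USP7 site is printed with the word in capitals, as the only match in a 3′ UTR of the 9.
USP7 3′ UTR site: ctctagccgaaGTCTTCAgcaagaggatt
The word begins at base 89 of a 3′ UTR of 1904 bases, and 3 of 21 annotated transcripts of USP7 hold it. Of 12888 protein-coding genes searched, 12.4% held GTCTTCA in the 3′ UTR and 2.77% held GCGCCCT there. Anywhere in the transcript, 16.05% held GCGCCCT. In the representative transcripts, GCGCCCT occurred in the coding sequence of ATXN7 and in no 3′ UTR of the 9. USP7 fell by like amounts in siRNF40 and siTG2, and any part of the word in either change was not tested. Other annotated transcripts of USP3 (3 of 21) and USP16 (1 of 6) also hold GTCTTCA, and others of ENY2 (1 of 16) and USP49 (1 of 5) hold GCGCCCT.

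The libraries held 29161285 to 35743918 reads in genes. The values are read counts divided by a size factor for each library, so that 1 read is worth 0.88 to 1.10 units, and they are called normalized read counts. RNF40 had 535, 497 and 528 normalized read counts in siRNF40, against 3004, 2784 and 2565 in siControl, and TGM2 had 59.4, 121 and 155 in siTG2, against 559, 702 and 554 in siControl. RNF40 was also lower in siTG2 (2249, 2506 and 2158; log2 fold change -0.27, SE 0.08, limma adjusted p = 0.019), a call that ended with equal totals (-0.13, adjusted p = 0.26), with quantile normalization (-0.15, adjusted p = 0.21) and without siTG2 replicate 1 or 3 or siControl replicate 1 or 2. TGM2 in siRNF40 had 839, 830 and 963, above every siControl library, and was not called (log2 fold change 0.54, SE 0.23, limma adjusted p = 0.063). With edgeR, and with replicate number as a block, TGM2 was called higher in siRNF40. Of 10 colon epithelial markers, 7 had a mean of at least 10, KRT8, KRT18, KRT19, EPCAM and CDH1 among them, while VIL1, CDX1 and LGALS4 were near 0. Their summed level was 136789 to 164313 in siRNF40, 83774 to 94787 in siTG2 and 92546 to 101563 in siControl. Of 6 fibroblast markers, COL1A1 and PDGFRB passed that level, with sums over the list of 1371 to 1705 in siRNF40, 1016 to 1172 in siTG2 and 822 to 997 in siControl, and COL1A2, DCN and LUM were at or near 0. The 5 leukocyte and 3 red cell markers summed together to at most 59.4 in any library. RN7SL2, which encodes 7SL, the RNA part of the signal recognition particle, had 7842, 2760 and 2689 normalized read counts in siRNF40, 820, 2317 and 1505 in siTG2 and 1023, 812 and 910 in siControl. Its level was higher in every siRNF40 library than in any library of the other groups. The covariate and the RNF40 knockdown therefore cannot be fully told apart. The level also varied within each knockdown and reached 2317 in siTG2 replicate 2. Each siRNF40 result was therefore also computed with the log2 level of RN7SL2 as a covariate, and the errors of that fit are larger.

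In siRNF40 against siControl, 3 of the 8 tested genes were higher and 2 lower at an adjusted p under 0.05 (limma with Benjamini-Hochberg adjustment over all tested genes). Over all tested genes, 45.3% were called, 21.7% higher and 23.6% lower. In siTG2 against siControl, 1 was higher and 3 were lower, where 31.3% of all genes were called, 12.8% higher and 18.5% lower. In siRNF40 against siTG2, which tests the difference between the knockdowns, 4 were higher and 1 lower, where 53.3% of all genes were called, 26.6% in each direction. The median log2 fold changes of the 8 were -0.02, -0.05 and 0.21 in the 3 comparisons, against 0.02, -0.01 and -0.01 over all genes. With so many genes called, the counts for these 8 are close to the background, and the description rests on the single genes. Both knockdowns are compared with the same 3 siControl libraries.

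**Figure D1:**
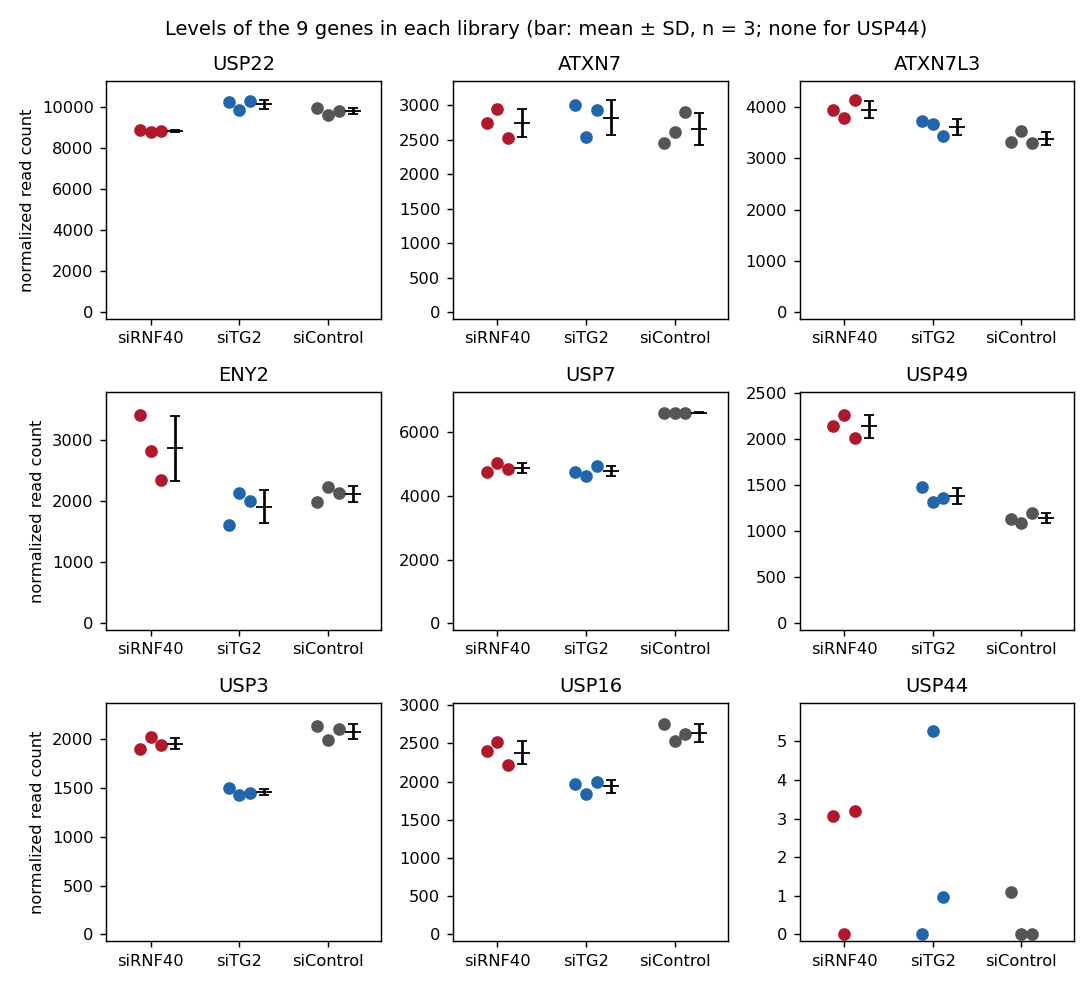
Normalized read count of each gene in every library of siRNF40, siTG2 and siControl, with mean ± SD of 3 libraries beside the points except for USP44. USP7 lies at 4636 to 5049 in both knockdowns and at 6590 to 6619 in siControl, and USP49 is highest in siRNF40 and lowest in siControl.

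USP22, the catalytic subunit of the SAGA module (hg19 chr17:20902910-20947073, minus strand), had 8868, 8795 and 8854 normalized read counts in siRNF40, 10243, 9872 and 10287 in siTG2 and 9937, 9635 and 9835 in siControl. All 3 siRNF40 libraries were below all others, and siTG2 overlapped siControl. The log2 fold change was -0.15 (SE 0.05, limma adjusted p = 0.032) in siRNF40 against siControl, and the direct contrast gave -0.20 (SE 0.05, adjusted p = 0.0051). The siRNF40 call ended without siRNF40 replicate 1 or 2, without any single siControl library and without the filter on low values. It also ended with replicate number as a block and with the RN7SL2 covariate (-0.13, adjusted p = 0.42). Its adjusted p ran from 0.011 to 0.42 over all alternatives. The call of the direct contrast ended with that covariate (adjusted p = 0.081). In siTG2 against siControl it had 0.05 (adjusted p = 0.55), but 0.19 (0.013) when libraries were scaled to equal totals and 0.25 (0.0014) with quantile normalization. An antisense gene that shares 2680 bases with USP22 averaged 33.8 in siRNF40, 79.2 in siTG2 and 85.1 in siControl, small beside USP22 itself.

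ATXN7L3, which USP22 needs for activity (hg19 chr17:42269173-42277481, minus strand), had 3933, 3789 and 4127 normalized read counts in siRNF40, 3734, 3668 and 3425 in siTG2 and 3314, 3523 and 3294 in siControl. The siRNF40 libraries were above all libraries of the other groups. It rose by a log2 fold change of 0.23 in siRNF40 (SE 0.07, limma adjusted p = 0.0088), a call that ended with the RN7SL2 covariate (0.27, adjusted p = 0.15), where the change was as large and the error larger. In siTG2 the value was 0.10 (adjusted p = 0.30), and the direct contrast gave 0.13 (SE 0.07, adjusted p = 0.10), so a difference between the knockdowns was not shown. Scaled to equal totals, the siTG2 value became 0.24 (adjusted p = 0.011), and with quantile normalization it was 0.24 (0.016).

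ENY2, a small adaptor that sits in the SAGA module and also in the TREX-2 mRNA export complex, had 3412, 2826 and 2350 normalized read counts in siRNF40, 1610, 2129 and 1995 in siTG2 and 1987, 2234 and 2130 in siControl. Every siRNF40 library was above every other, though the lowest of them, 2350, was close to the highest siControl library, and the group had the largest relative spread of any tested gene of the 9 (SD 18.6% of the mean). ENY2 rose by 0.42 in siRNF40 (SE 0.11, limma adjusted p = 0.0056) and was 0.58 higher in siRNF40 than in siTG2 (SE 0.11, adjusted p = 0.00031). With the RN7SL2 covariate both calls ended, and the siRNF40 value changed sign to -0.11 (SE 0.15, adjusted p = 0.68), while the direct contrast gave 0.21 (adjusted p = 0.20). In siTG2 against siControl it had -0.16 (adjusted p = 0.33) and passed with the covariate (-0.32, adjusted p = 0.014). NUDCD1, a gene on the opposite strand that shares 62 bases with ENY2, averaged 2574 in siRNF40, 1522 in siTG2 and 1924 in siControl, in the same order as ENY2. Whether counting used strand is not given in the sources used here, so reads over the shared bases cannot be told apart.

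ATXN7, the tether of the module and the gene whose repeat expansion underlies a spinocerebellar ataxia (hg19 chr3:63850233-63989138, plus strand), had 2748, 2951 and 2533 normalized read counts in siRNF40, 3002, 2540 and 2930 in siTG2 and 2449, 2617 and 2909 in siControl. The 3 groups overlapped one another. Its log2 fold changes were 0.05 (SE 0.08, limma adjusted p = 0.69) in siRNF40 and 0.09 (SE 0.08, adjusted p = 0.47) in siTG2, with -0.04 (adjusted p = 0.72) between them. Scaled to equal totals, siTG2 gave 0.23 (adjusted p = 0.044) and the direct contrast -0.22 (adjusted p = 0.037). Within the deubiquitinating module, values in siRNF40 ran from -0.15 for USP22 to 0.42 for ENY2, each tied to the alternatives named above. With the RN7SL2 covariate both of these values were negative and neither was called. Differences between the subunits were not tested.

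**Figure D2:**
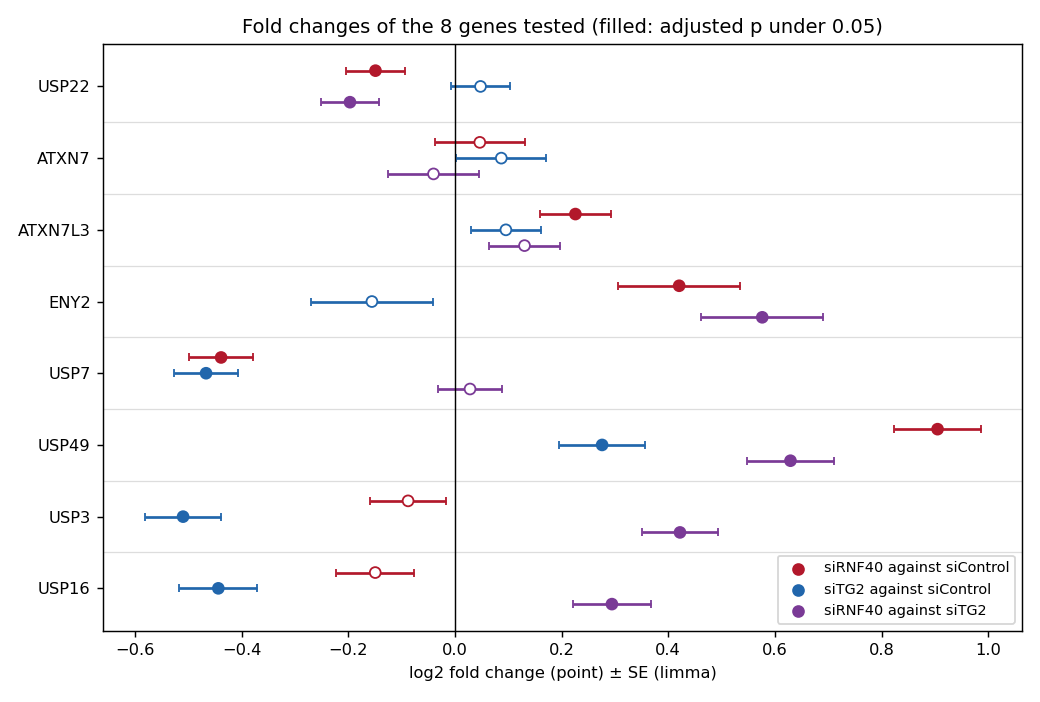
Log2 fold change (point) with its SE (bar) for the 8 tested genes, for each knockdown against siControl and for siRNF40 against siTG2, with filled points for an adjusted p under 0.05. USP7 has negative values of like size in both knockdowns and lies near 0 between them, whereas the points of USP22, USP49, USP3, USP16 and ENY2 for siRNF40 against siTG2 are filled.

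USP7 (hg19 chr16:8985951-9058371, minus strand), which acts on H2B and also keeps MDM2, UHRF1 and DNMT1 from degradation, had 4740, 5049 and 4838 normalized read counts in siRNF40, 4752, 4636 and 4956 in siTG2 and 6609, 6590 and 6619 in siControl. All 6 knockdown libraries were far below the 3 controls, which differed from each other by very little. USP7 fell to 73.8% of siControl in siRNF40 (log2 fold change -0.44, SE 0.06, limma adjusted p = 6.7e-06) and to 72.4% in siTG2 (-0.47, SE 0.06, adjusted p = 7e-06). Both calls held in all 19 alternatives run, the RN7SL2 covariate included (-0.38, adjusted p = 0.020, in siRNF40). Between the knockdowns the value was 0.03 (SE 0.06, adjusted p = 0.72), and scaled to equal totals it was -0.15 (adjusted p = 0.043).

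USP49 (hg19 chr6:41757634-41863099, minus strand), an H2B deubiquitinase reported to act in splicing, had 2145, 2268 and 2016 normalized read counts in siRNF40, 1480, 1317 and 1359 in siTG2 and 1140, 1089 and 1202 in siControl. The groups formed 3 steps without overlap. USP49 rose to 187% of siControl in siRNF40 (log2 fold change 0.90, SE 0.08, limma adjusted p = 3.8e-08) and to 121% in siTG2 (0.28, SE 0.08, adjusted p = 0.014). It was 0.63 higher in siRNF40 than in siTG2 (SE 0.08, adjusted p = 2.4e-06). The siRNF40 and direct calls held in all 19 alternatives, with 0.99 (adjusted p = 0.00013) in siRNF40 under the RN7SL2 covariate. The siTG2 call ended without siTG2 replicate 1 (0.23, adjusted p = 0.071) or siControl replicate 2 (0.24, adjusted p = 0.066), with adjusted p from 0.00063 to 0.071 over all alternatives. PRICKLE4, which shares 246 bases on the opposite strand, averaged 431 in siRNF40, 834 in siTG2 and 418 in siControl, an order that differs from that of USP49.

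USP44 (hg19 chr12:95910336-95945266, minus strand), an H2B deubiquitinase known from the mitotic checkpoint and from stem cells, had 3.06, 0 and 3.20 normalized read counts in siRNF40, 0, 5.28 and 0.977 in siTG2 and 1.10, 0 and 0 in siControl. These are 6, 7 and 1 reads in the 3 groups, so no difference could be detected at this depth. The gene did not reach the mean of 10 needed for testing.

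USP3 (hg19 chr15:63796793-63886839, plus strand), which removes ubiquitin from H2A and H2B and is known for its role in genome stability, had 1903, 2017 and 1939 normalized read counts in siRNF40, 1494, 1432 and 1447 in siTG2 and 2138, 1989 and 2102 in siControl. The siTG2 libraries were below all others, and siRNF40 overlapped siControl. USP3 fell to 70.2% of siControl in siTG2 (log2 fold change -0.51, SE 0.07, limma adjusted p = 2.1e-05) and was 0.42 higher in siRNF40 than in siTG2 (SE 0.07, adjusted p = 5.6e-05). Both calls held in all 19 alternatives. In siRNF40 against siControl the value was -0.09 (SE 0.07, adjusted p = 0.34).

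USP16 (hg19 chr21:30396950-30426809, plus strand), an H2A deubiquitinase needed for mitosis, had 2398, 2518 and 2221 normalized read counts in siRNF40, 1974, 1845 and 1996 in siTG2 and 2756, 2528 and 2626 in siControl. The groups did not overlap, with siTG2 lowest and siControl highest, but the highest siRNF40 library was close to the lowest control. USP16 fell to 73.5% of siControl in siTG2 (log2 fold change -0.44, SE 0.07, limma adjusted p = 0.00012), a call that held in all 19 alternatives. In siRNF40 the value was -0.15 (SE 0.07, adjusted p = 0.10), which passed when libraries were scaled to equal totals (-0.18, adjusted p = 0.049). It was 0.29 higher in siRNF40 than in siTG2 (SE 0.07, adjusted p = 0.0022), a call that ended with equal totals (0.12, adjusted p = 0.18).

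**Figure D3:**
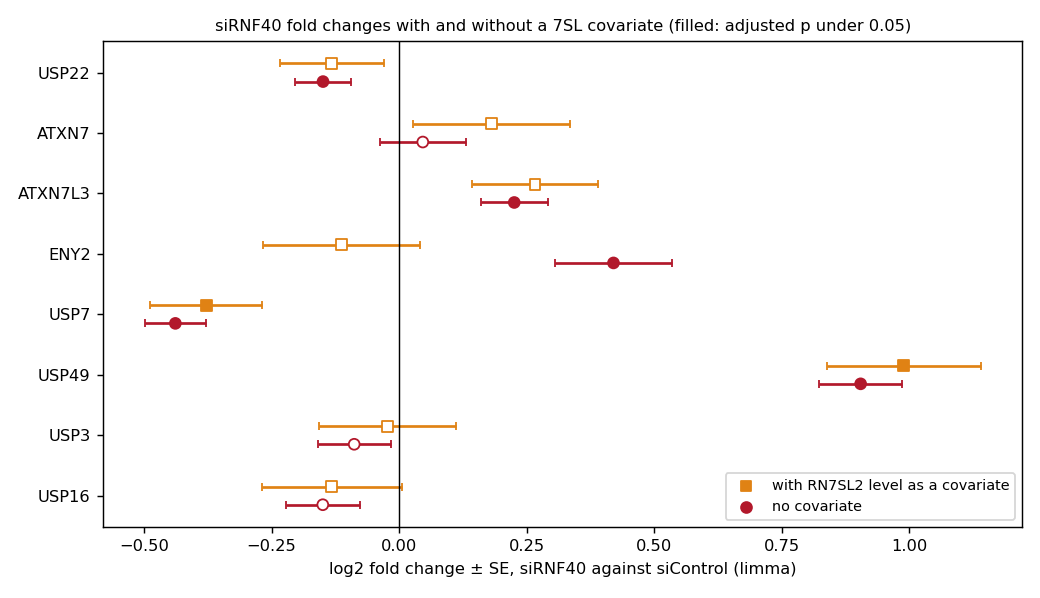
Log2 fold change ± SE in siRNF40 against siControl for the 8 tested genes, with the log2 level of RN7SL2 as a covariate (squares) and without it (circles), filled where the adjusted p is under 0.05. USP7 and USP49 are filled in both fits, while ENY2 lies at -0.11 with the covariate and at 0.42 without it.

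The genes also differed in how their profiles matched across the 9 libraries. Likeness was taken as the root mean square difference between centred log2 profiles, where a small value means a close match, and it is a description over 9 libraries that share their normalization. The closest pair among the 8 was USP3 and USP16 (0.07), followed by USP22 and ATXN7 (0.13) and by USP7 and USP16 (0.14). Genes that move little also give a small value, and the log2 group means of USP22 and ATXN7 ranged by only 0.20 and 0.09. Among 12256 other genes with a mean of at least 100, those closest to USP22 were HERC4 (0.02), CERK (0.03) and YTHDC1 (0.04), against a median of 0.27. Closest to USP49 were FAM175A (0.08), MRI1 (0.08) and B4GALNT3 (0.10), against a median of 0.44. Closest to ENY2 were ATP5H (0.08), TBCA (0.08) and HINT1 (0.08), against a median of 0.36.

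Levels of different genes were set side by side per kb of annotated exon (all exons of a gene merged, GENCODE 29). USP22 was the most abundant, with 1298 normalized read counts per kb in siRNF40, 1489 in siTG2 and 1440 in siControl. In siControl it was followed by USP7 (829), ATXN7L3 (637), USP16 (463), ENY2 (312), ATXN7 (290), USP3 (267) and USP49 (105). The libraries of ENY2 and ATXN7 overlapped in siControl and siTG2, as did those of ATXN7 and USP3 in siControl and of USP16 and ENY2 in siRNF40. In siRNF40 and in siTG2, ATXN7L3 (745 and 681 per kb) stood above USP7 (612 and 600 per kb), the reverse of siControl. The deposited values carry hg19 coordinates, so the exons counted may differ from those of GENCODE 29. The order also depends on the length used. Per kb of a single representative transcript, USP3 in siControl had 890, above USP16 (878), because its merged exons span 7764 bases and the transcript 2333.

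**Figure D4:**
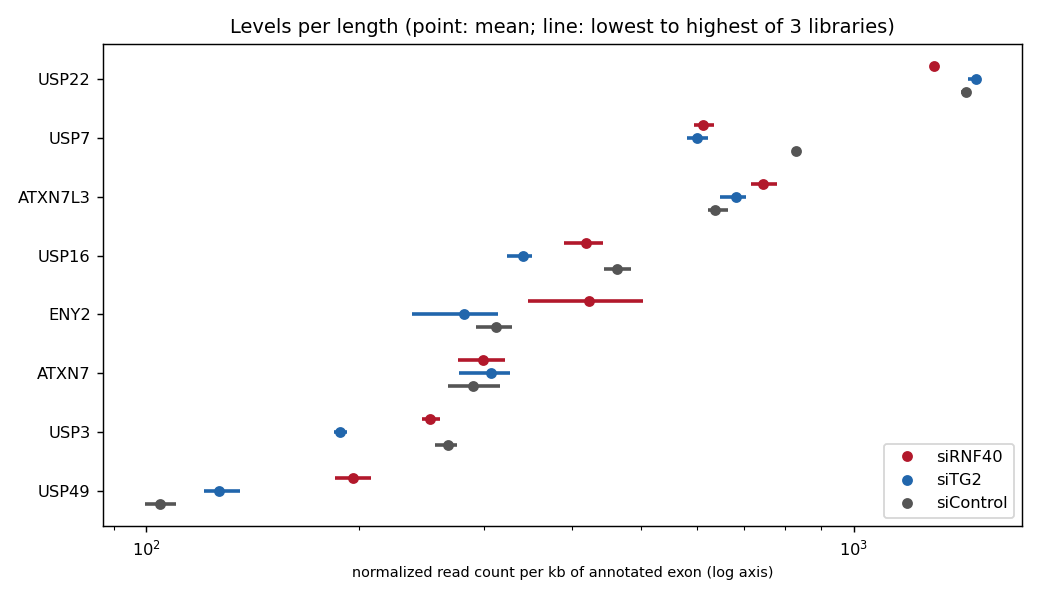
Normalized read count per kb of annotated exon on a log axis for the 8 tested genes in siRNF40, siTG2 and siControl, with the mean as a point and the lowest to highest of 3 libraries as a line. USP22 lies highest in all groups, and ATXN7L3 and USP7 change order between the knockdowns and siControl.

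The other genes of these pathways were described from 7 lists of 58 genes. USP11, RNF2 and RING1 recur across lists and are counted in each. The lists were not tested as sets. For the list counts and medians below, the background in siRNF40 was 45.3% of all tested genes called (21.7% higher, 23.6% lower; median 0.02). In siTG2 it was 31.3% (12.8% higher, 18.5% lower; median -0.01). Among relatives of the module, ATXN7L2, a paralog of ATXN7, had mean levels of 251 in siRNF40, 217 in siTG2 and 148 in siControl. ATXN7L2 rose in siRNF40 (0.73, SE 0.20, limma adjusted p = 0.0061) and in siTG2 (0.54, SE 0.20, adjusted p = 0.049), but the first call ended with the RN7SL2 covariate (adjusted p = 0.15) and the second in 11 of 19 alternatives. ATXN7L1, another paralog, had 0.07 in siRNF40 and 0.24 in siTG2 and was not called in either. USP27X, which can replace USP22 on the module, had 0.10 in siRNF40 and 0.55 in siTG2 (adjusted p = 0.067). USP51, the other such enzyme, was at 0 in all groups. With equal totals, ATXN7L1, ATXN7L2 and USP27X were all called higher in siTG2, and with quantile normalization none of them was called. Their siTG2 results thus depend on the scaling.

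In the SAGA acetyltransferase module, 2 of 5 genes were higher and 1 lower in siRNF40 (median 0.09), and none was called in siTG2 (median -0.16). TADA2B, an adaptor that ties the acetyltransferase to SAGA, averaged 691 in siRNF40, 1230 in siTG2 and 1372 in siControl. It fell in siRNF40 by a log2 fold change of -0.99 (SE 0.08, limma adjusted p = 1.2e-08), and the call held in all 19 alternatives. CCDC101, also named SGF29, which binds methylated histone H3 (0.78, adjusted p = 0.0021), and KAT2A, the acetyltransferase GCN5 (0.39, adjusted p = 0.017), rose in siRNF40, and both calls ended with the RN7SL2 covariate (adjusted p = 0.33 and 0.43). KAT2B had -0.27 and TADA3 0.09 in siRNF40, neither called.

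In the SAGA core, 2 of 13 genes were higher and 3 lower in siRNF40 (median 0.09), and none higher and 2 lower in siTG2 (median -0.17). SUPT20H, a structural subunit, fell by -0.30 (SE 0.07, limma adjusted p = 0.0014) in siRNF40 and by -0.31 (SE 0.07, adjusted p = 0.0017) in siTG2, the second call ending with equal totals (-0.17, adjusted p = 0.063). SUPT7L, another structural subunit, fell by -0.29 in siRNF40 and by -0.25 in siTG2 (adjusted p = 0.0024 and 0.011), and its calls ended with the covariate in siRNF40 (adjusted p = 0.29) and with equal totals in siTG2 (adjusted p = 0.26). TAF12, a histone-fold subunit, rose in siRNF40 (0.52, adjusted p = 0.00016), a call that ended with the covariate (log2 fold change 0.41, adjusted p = 0.11). TAF9B had -0.23 in siRNF40 (adjusted p = 0.046), a call kept in 9 of 19 alternatives. TRRAP, the subunit that activators bind, had 0.10 and TAF10 -0.01 in siRNF40, neither called. With equal totals, the core in siTG2 had 1 gene higher and none lower, so its direction in siTG2 depends on the scaling.

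In TREX-2, the export complex that shares ENY2, 2 of 5 genes were higher and none lower in siRNF40 (median 0.21), and none higher and 1 lower in siTG2 (median 0.01). CETN2, a centrin (0.49, adjusted p = 0.0019), and PCID2, a subunit that binds nucleic acid (0.21, adjusted p = 0.022), rose in siRNF40 by limma, and PCID2 fell in siTG2 (-0.25, adjusted p = 0.013). With the covariate neither was called in siRNF40 (adjusted p = 0.42 and 0.37), and PCID2 lost its siTG2 call with equal totals (adjusted p = 0.28). MCM3AP, the scaffold (-0.06), CETN3 (-0.13) and SHFM1 (0.35) were not called in siRNF40.

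**Figure D5:**
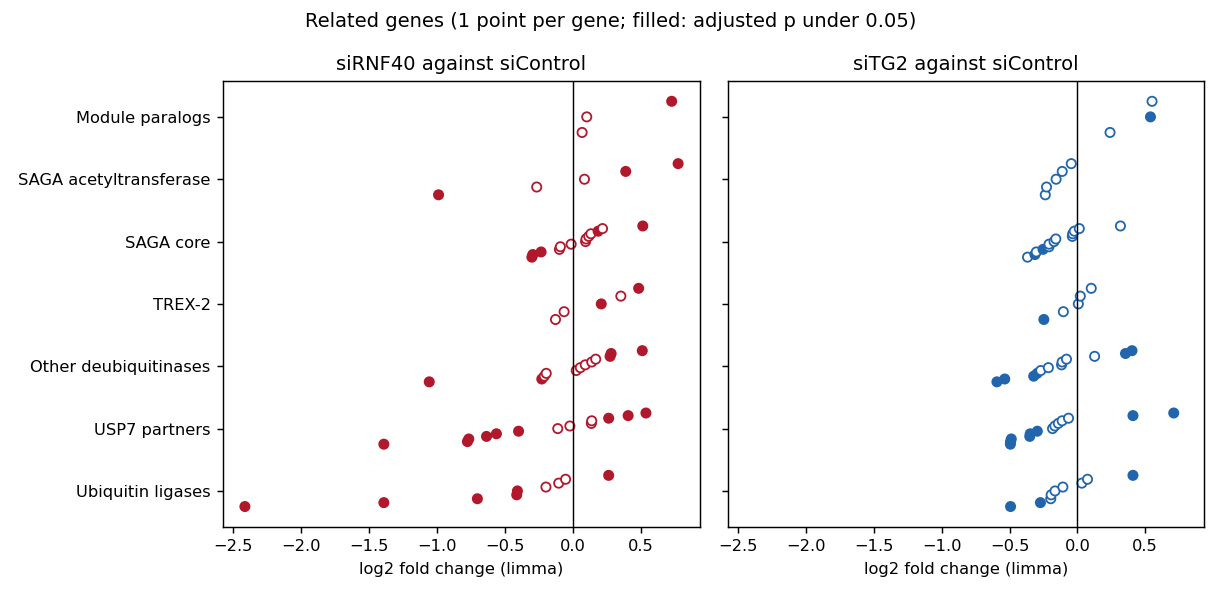
Log2 fold changes of the genes of the 7 lists in siRNF40 against siControl (left) and siTG2 against siControl (right), 1 point per gene in each list, filled where the adjusted p is under 0.05. USP11, RNF2 and RING1 recur across lists. Points lie on both sides of 0 in most lists, and the lowest point of the ligases in siRNF40 is RNF40, the siRNA target.

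Of 12 other histone deubiquitinases and BAP1 cofactors, 3 were higher and 2 lower in siRNF40 (median 0.07), and 2 higher and 4 lower in siTG2 (median -0.17). The siTG2 split depends on the scaling, with 3 higher and 2 lower with equal totals and 2 higher and 2 lower with quantile normalization. USP12, reported to act on H2A and H2B, averaged 2094 in siRNF40, 2879 in siTG2 and 4341 in siControl. It fell in siRNF40 (-1.06, SE 0.08, limma adjusted p = 3.8e-09) and in siTG2 (-0.59, SE 0.08, adjusted p = 1.3e-05), more in siRNF40 by the direct contrast (-0.46, adjusted p = 6.4e-05). USP46, its close paralog, rose in both, by 0.51 in siRNF40 (adjusted p = 1.5e-05) and 0.40 in siTG2 (adjusted p = 0.00039). USP36, a nucleolar enzyme, fell in siTG2 (-0.54, adjusted p = 7.4e-06) and had 0.03 in siRNF40, and ASXL1, a cofactor of BAP1, rose in siTG2 (0.35, adjusted p = 0.00051) and had 0.06 in siRNF40. These calls of USP12, USP46, USP36 and ASXL1 against siControl held in all 19 alternatives. MYSM1 (-0.21) and BRCC3 (0.17) were not called in siRNF40.

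Of 13 partners and substrates of USP7, 3 were higher and 6 lower in siRNF40 (median -0.11), and 2 higher and 6 lower in siTG2 (median -0.18). UHRF1, which reads hemimethylated DNA, fell in both knockdowns, by -0.77 in siRNF40 (SE 0.07, limma adjusted p = 8e-08) and -0.49 in siTG2 (SE 0.07, adjusted p = 4.2e-05). PCGF6, a Polycomb subunit, fell in siRNF40 (-0.78, adjusted p = 1.2e-06) and had -0.18 in siTG2. Some partners moved in opposite directions: RNF2, the H2A ligase RING1B, averaged 554 in siRNF40, 1929 in siTG2 and 1451 in siControl. RNF2 fell in siRNF40 (-1.39, adjusted p = 8.7e-10) and rose in siTG2 (0.41, adjusted p = 0.0024), with -1.80 between the knockdowns (SE 0.09, adjusted p = 1.4e-11). MAGED2, a MAGE family protein, fell in siRNF40 (-0.40, adjusted p = 0.0021) and rose in siTG2 (0.71, adjusted p = 1.4e-05), with -1.11 between them (SE 0.10, adjusted p = 1.4e-08).

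MDM2 and DNMT1 were chosen after their values were seen. MDM2, a ubiquitin ligase, averaged 11102 in siRNF40, 5419 in siTG2 and 7630 in siControl. It rose in siRNF40 (0.54, limma adjusted p = 4e-06) and fell in siTG2 (-0.49, adjusted p = 2.4e-05), with 1.03 between them (SE 0.07, adjusted p = 5e-10). DNMT1, the maintenance DNA methyltransferase, fell by -0.56 in siRNF40 and -0.35 in siTG2 (adjusted p = 4.1e-07 and 0.00019). TRIM27 (-0.11) was not called in siRNF40. The calls of UHRF1, PCGF6, RNF2, MAGED2, MDM2 and DNMT1 against siControl held in all 19 alternatives.

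Of 9 ligases and partners that place ubiquitin on H2B and H2A, 1 was higher and 5 lower in siRNF40 (median -0.41), RNF40 itself among them, and 1 higher and 2 lower in siTG2 (median -0.17). The siTG2 split was 2 higher and 1 lower with equal totals and 1 of each with quantile normalization. UBE2A, the conjugating enzyme that works with RNF20-RNF40, averaged 1601 in siRNF40, 2739 in siTG2 and 2603 in siControl and fell in siRNF40 (-0.70, SE 0.07, limma adjusted p = 3.1e-07), in all 19 alternatives too. RING1, an H2A ligase, rose in siRNF40 (0.26, adjusted p = 0.021) and fell in siTG2 (-0.49, adjusted p = 0.00032). The siRNF40 call of RING1 ended with the RN7SL2 covariate (log2 fold change 0.04, adjusted p = 0.89) and without siRNF40 replicate 1 or siControl replicate 1 or 3. RNF20, the partner of RNF40, had -0.10 (SE 0.08, adjusted p = 0.32) in siRNF40, and RNF8, a DNA damage ligase, had -0.05, neither called.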

How the data were processed

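Messenger RNA of 9 HCT116 libraries (3 each of siRNF40, siTG2 and siControl) was used. Per the submitters' processing notes, Trim Galore 0.4.1, STAR 2.7.0, HTSeq 0.12.4 and DESeq2 were named, with the builds hg19 and hg38. The strand setting is not given in the sources used here. The values deposited by the authors are a signal: reads counted for a gene, divided by the library's DESeq2 size factor. All 9 value columns were used. Whole reads were recovered for 100% of values within 0.001 reads. The authors also deposited 2 comparison tables against siControl with log2 fold changes and p-values, which were not used for the results above. The column abbreviation NC was read as siControl.

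Tests used limma 3.58.1 (R 4.3.3) with an intensity trend on log2(value + 1), over genes with a mean of at least 10, in a single fit of 9 libraries with 3 group means. Fold changes are therefore on the log2(value + 1) scale, which understates low genes. Calls are two-sided, at a Benjamini-Hochberg adjusted p under 0.05 over 17663 genes. The code was tested on simulated data. edgeR 4.0.16 on the recovered reads called 7926 genes in siRNF40 against siControl, 5455 in siTG2 against siControl and 9430 in siRNF40 against siTG2, against 8000, 5533 and 9410 by limma. DESeq2 1.42.0 was another alternative. The RN7SL2 covariate was chosen after seeing the data.

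The 9 genes, the 7 lists and the 2 words were chosen with earlier results of these data known. From each list the text names up to 4 called genes with the largest change against siControl and a mean of at least 50, and up to 2 not called, or all genes of a list of 5 or fewer. A result on 1 gene of the lists is not reported here. The labels do not say that replicates were separate cultures, so p-values measure only the spread between these samples, which may be technical. No pairing of the samples by replicate number was detected. Sequences come from RefSeq (GRCh38.p14) for promoters, where 7 of the 9 genes matched, and from GENCODE 29 for transcripts. Gene coordinates are those of the deposited table, in hg19.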

Additional observations from a re-analysis of the deposited data

How the results depend on the processing

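Of 14 calls of the single genes, 7 held in all 19 alternatives: USP7 in both knockdowns, USP49 in siRNF40 and in the direct contrast, USP3 in siTG2 and in the direct contrast, and USP16 in siTG2. With the RN7SL2 covariate, siRNF40 against siControl had 3431 genes called, and 2 of the 8 genes (1 higher, 1 lower) in place of 5, and the direct contrast had 3 of 8 in place of 5. With it the ENY2 value was -0.11 in siRNF40 against siControl, and the ATXN7 value was 0.053 between the knockdowns. The covariate was higher in every siRNF40 library than in any other, so it and the RNF40 knockdown cannot be fully told apart. It also varied within each knockdown, and the cause of these losses was not tested. Scaling to equal totals moved the median of all genes by 0.14 in siTG2 against siControl and by -0.17 in siRNF40 against siTG2. It raised the share of higher calls to 67.2% in siTG2 against siControl, against 40.9% as reported, and lowered it to 34.1% in siRNF40 against siTG2, against 49.99% as reported. With equal totals 7 of the 8 genes were called in siTG2 (4 higher, 3 lower). Between the knockdowns, ATXN7L3 then had -0.046 and USP7 -0.15, and USP7 had -0.0050 with edgeR and -0.065 with quantile normalization. Leaving out 1 library gave ATXN7 -0.011 to 0.11 in siRNF40 against siControl and -0.11 to 0.016 between the knockdowns. With the replicate block, USP22 lost its siRNF40 call (-0.15, adjusted p = 0.062), leaving 4 of 8 called, and 7735, 5164 and 9203 genes were called in the 3 comparisons. Deviations from the group mean correlated across genes at -0.08 to 0.08 between same-numbered libraries and at -0.08 to 0.09 between differently numbered ones. No pairing by number was thus detected. Depth limits USP44 (6 reads in siRNF40, 7 in siTG2 and 1 in siControl), and with 3 libraries a group small changes such as that of USP22 rest on few values.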
